A study of Mus musculus with 6 samples.

Results

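Antioxidant and redox defence genes encode the peroxiredoxins, thioredoxins, glutathione enzymes, superoxide dismutases and catalase that remove reactive oxygen species, together with the NRF2 regulators and the haem and iron proteins that act beside them. Members were chosen by gene symbol from a list of 43, and 41 of the 13642 genes in the deposited table carried such a symbol. Gpx8 and Nqo1 were not analysed here. Transcripts were measured by RNA sequencing in 6 libraries of C57BL/6J mice. The cells were long-lived plasma cells, which no longer divide and secrete antibody from niches in bone marrow. The 3 old libraries came from males aged 17 to 19 months, bred in the colony of the National Institute on Aging. The 3 young libraries came from females of 2 to 3 months from the Jackson Laboratory or the UCLA animal facility. Sex and supplier therefore changed with age and cannot be told apart from it. The labels name no mutant allele and no treatment in either group. Cells had been sorted from marrow as CD138 high and without B220, IgD, T cell receptors, CD11b and Gr-1. The design text speaks of 3 independent groups of mice at each age but not of how many animals each library held, so the p-values below rest on a spread between libraries that could be technical in part.

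Hydrogen peroxide in the cytosol and in mitochondria is reduced mainly by peroxiredoxins, which thioredoxin and then thioredoxin reductase restore with electrons from NADPH. Glutathione serves a parallel system: it is made by glutamate-cysteine ligase and glutathione synthetase, used by glutathione peroxidases, transferases and glutaredoxins, and restored by glutathione reductase. NRF2, the product of Nfe2l2, is held and degraded through Keap1 until oxidants or electrophiles modify Keap1, and then it binds antioxidant response elements near many of these genes. In plasma cells the forming of antibody disulfide bonds yields hydrogen peroxide in the endoplasmic reticulum, where the peroxiredoxin Prdx4 acts.

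The letters TGACNNNGC, the core of the antioxidant response element, were searched on both strands of promoter windows of 250 bases before to 50 bases after the start of transcription, from RefSeq on GRCm38.p6. Windows were present for 39 of the 43 listed symbols, and 8 of these genes, or 20.5%, held the letters, against 14.0% of all 27025 symbols. Counted by window, 8 of 57 (14.0%) held them, against 12.4% of all 32851. The looser form TGANNNNGC, which contains every match of the first, was in 38.5% of the 39 genes and in 45.0% of all symbols. A match is a description of the letters, and their absence says only that they are not in this window. Gclc, Gsr, Hmox1 and Prdx6 were not searched. The 8 matches found in the 39 genes are shown so that the levels of these genes can be read beside them. Each line gives 29 bases of the gene's own strand, with the matched letters in capitals. In all but Gstm5 and Nfe2l2 the match is on the opposite strand. Prdx1 lies at chr4:116685456-116685484, Gclm at chr3:122245413-122245441, Gstm5 at chr3:107895802-107895830, Mgst1 at chr6:138140461-138140489, Nfe2l2 at chr2:75704885-75704913, Sod1 at chr16:90220696-90220724, Srxn1 at chr2:152105542-152105570 and Txnrd1 at chr10:82859104-82859132. Nfe2l2 is read from the minus strand and the others from the plus strand.
Prdx1: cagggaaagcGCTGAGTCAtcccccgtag
Gclm: gctcccgggcGCACCGTCAactctcacga
Gstm5: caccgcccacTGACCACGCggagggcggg
Mgst1: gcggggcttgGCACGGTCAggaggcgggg
Nfe2l2: tcagcccaccTGACTCCGCcatgccccgg
Sod1: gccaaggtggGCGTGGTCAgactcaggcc
Srxn1: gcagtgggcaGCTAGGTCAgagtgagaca
Txnrd1: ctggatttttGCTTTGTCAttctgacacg

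The match began 133 bases before the start site in Prdx1, 134 in Gclm, 42 in Gstm5, 56 in Mgst1 and in Sod1, 92 in Txnrd1 (one of its start sites) and 240 in Nfe2l2, whose RefSeq start lies outside the GENCODE M21 transcripts of the gene. In Srxn1 it began at base 29 of the transcript. The 250 bases before the start are given for Prdx1 (chr4:116685349-116685598) and Sod1 (chr16:90220512-90220761), the most abundant of the 8, both on the plus strand.
Prdx1: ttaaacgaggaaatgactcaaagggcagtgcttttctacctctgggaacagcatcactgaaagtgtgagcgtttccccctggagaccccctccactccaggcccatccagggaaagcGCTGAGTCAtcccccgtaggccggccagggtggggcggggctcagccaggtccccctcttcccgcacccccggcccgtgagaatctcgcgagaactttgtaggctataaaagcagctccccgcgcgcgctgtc
Sod1: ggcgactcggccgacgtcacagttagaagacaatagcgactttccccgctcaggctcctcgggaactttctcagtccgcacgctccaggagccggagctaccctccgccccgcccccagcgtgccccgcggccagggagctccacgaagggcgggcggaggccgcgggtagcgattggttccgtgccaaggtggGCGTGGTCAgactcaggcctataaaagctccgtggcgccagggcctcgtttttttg
The levels of these 8 genes differed widely, with means over the 6 libraries of 0.642 FPKM for Srxn1 and 238 for Sod1.

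Values are FPKM as deposited, sequenced fragments scaled for gene length and for library depth, and are given for replicates 1, 2 and 3 in that order. Plasma cell markers were abundant in every library: 8 of them summed to 22514, 22768 and 8956 FPKM in old libraries, against 19745, 22719 and 23103 in young ones. Old replicate 3 thus stood apart, and it also had the highest sums of erythroid markers (846 FPKM over 7 genes, against at most 281 in any other library) and of monocyte and macrophage markers (657 over 11 genes, against at most 272). Its sums of eosinophil, basophil and mast cell (1459 FPKM), megakaryocyte (46.9) and T and NK cell markers (35) were highest too. Prg2 made up most of the first of these sums in every library, at 861 to 1353 FPKM, and was highest in young replicate 2. Of the same list Mcpt8 (265 FPKM), Cpa3 (54.7), Ms4a2 (45.6) and Ear2 (18.9) were highest in old replicate 3. Epx, Siglecf and Fcer1a were highest in other libraries. Sums of neutrophil (1279) and B cell markers (110.4) were highest in old replicate 2. The neutrophil list was split. S100a9 (749 FPKM), Ngp, Camp, Ltf and Lcn2 were highest in old replicate 2, and Elane (220.1), Mpo (264) and Prtn3 (86.2) in old replicate 3. S100a8 was highest in young replicate 2 and Retnlg in young replicate 3. The sum of plasmacytoid dendritic cell markers (302) was highest in young replicate 3, where Bst2 alone was at 199.7 FPKM and Siglech at 16. That of stroma markers (18.9) was highest in young replicate 2, where Pecam1 alone was at 16.8. Depths estimated from the steps of the low values were about 27.1, 27.6 and 27.2 M fragments in old libraries and about 24.4, 25.2 and 22.4 M in young ones. The numbers of genes above 0 did not overlap, at 11310 to 12049 in old libraries and 8934 to 10664 in young ones. A single fragment in a gene of 1 kb was worth 0.0362 to 0.037 FPKM in old and 0.0396 to 0.0446 in young libraries. Libraries were amplified from 5 ng of RNA, so fragments are not all independent molecules, and these figures describe counting only. In such bulk samples fewer cells of a type and less RNA per cell cannot be told apart.

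The 41 members together took 0.56% ± 0.0726 of the summed FPKM in old libraries and 0.496% ± 0.0585 in young ones (SD, n = 3 each), with overlapping values. Ferritin heavy chain Fth1, superoxide dismutase Sod1 and ferritin light chain Ftl1 were the most abundant, with means over the 6 libraries of 309, 238 and 138 FPKM. They were followed by Txnip (110.2), Gstp1 (86.0), Gpx1 and Hmox2 (67.9 each) and Prdx4 (63.7). Of the 41, 12 were in the top 10% of all genes by mean FPKM and 21 in the top 25%. At the other end, Srxn1, Gstm5 and Gstk1 had means under 1 FPKM and were not tested, which left 38. A member such as Mgst1, with a mean of 1.09, was tested through its old libraries alone.

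**Figure D1:**
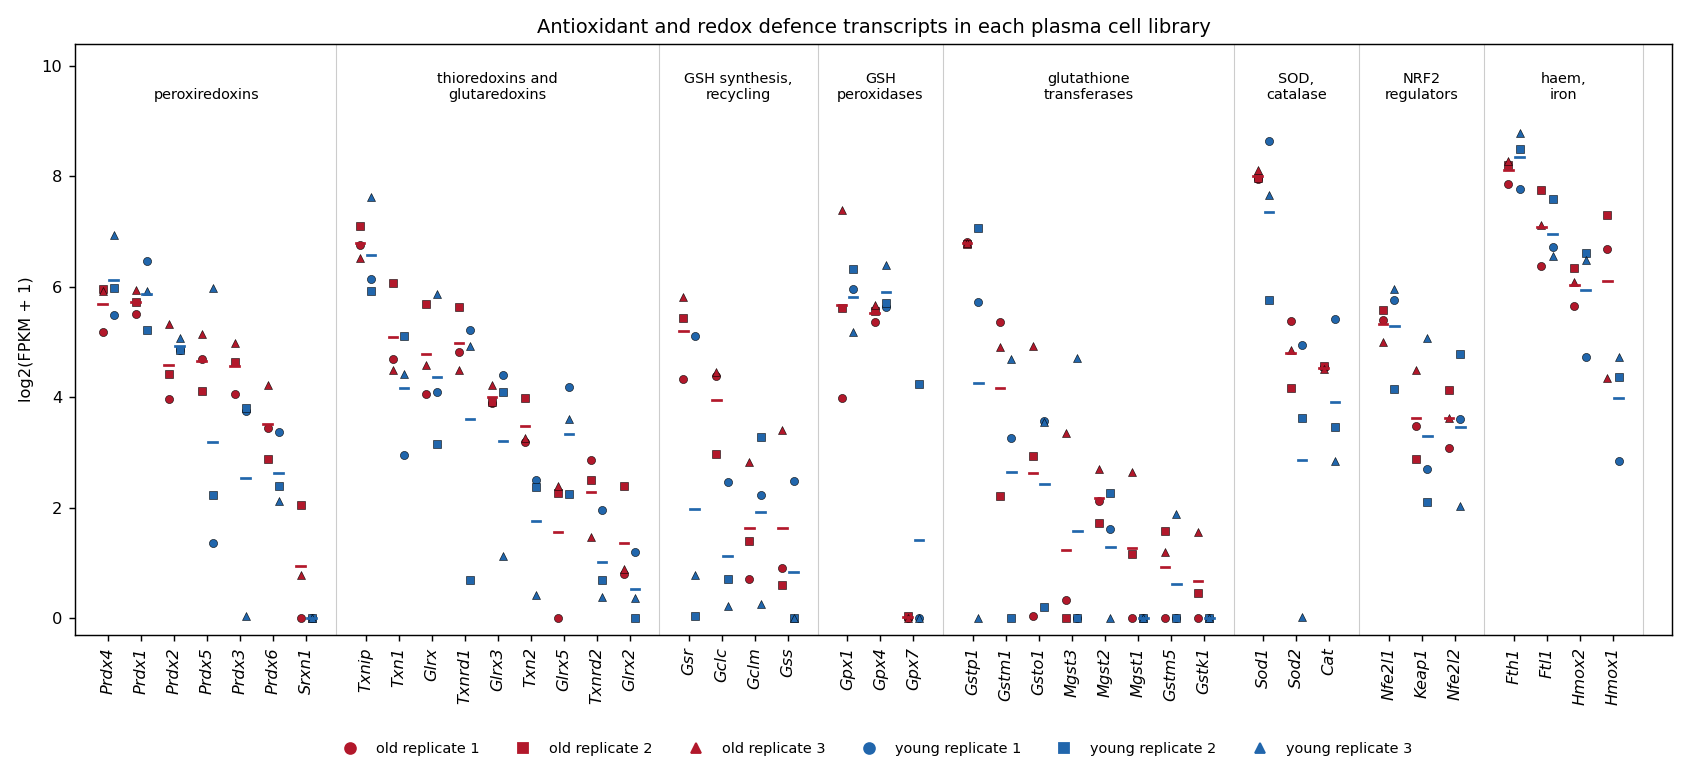
Log2(FPKM + 1) of the 41 antioxidant and redox defence genes, grouped by role and ordered by mean FPKM, with one point per library (old left, young right of each pair) and a bar at each group mean. Gstp1 (109 to 112 FPKM) and Sod1 (247 to 276) lie close together in the old libraries and spread widely in the young ones, where Gstp1 is listed at 0 in replicate 3 and Sod1 is at 53.5 FPKM in replicate 2. Other abundant genes, such as Gpx1 (14.8 to 168 in old, 35.3 to 78.7 in young), spread more in the old libraries.

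Which of these genes differed between old and young plasma cells was tested with limma on log2(FPKM + 1). At an adjusted p under 0.05 it called 0 of the 38 members and 0% of the 10687 genes tested, and the lowest adjusted p of any member was 0.736. At an unadjusted p under 0.05, 3 members (7.89%) were higher in old libraries, against 4.66% of all genes, and 0 were lower, against 1.25%. These 3 were Gclc, Gsr and Hmox1. Groups did not overlap for Gclc, Prdx3 and Txn2, each higher in old libraries, which is 7.89% of the members against 8.78% of all genes. For 0 members was every old library below every young one, against 3.42% of all genes. Both shares lie near the background and are no result about the members.

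Of the 38 tested members, 28 (73.7%) had a log2 change above 0, against 61.3% of all genes, and the members' median change was 0.64 against 0.23. Under quantile normalization, which moved the median of all genes to -0.01, 25 of 38 members and 5282 of 10687 genes were positive. Without Mgst1, which was listed at 0 in every young library, the median of the other 37 members was 0.63. Glrx2 (young mean 0.527 FPKM) and Gpx7 (old mean 0.00911 FPKM) also had a group mean under 1 FPKM and remained in these figures. Without old replicate 3, the library that stood apart, 25 of 38 were positive with a median of 0.52. Over all genes 57.9% were then positive, with a median of 0.165. A limit of at least 20 FPKM in the mean was added after seeing the data. At that limit 14 of 20 members were positive with a median of 0.31. Of the 2835 genes there, 51.4% were positive, with a median of 0.02. The changes ran from -1.79 for Glrx5 to 3.21 for Gsr.

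**Figure D2:**
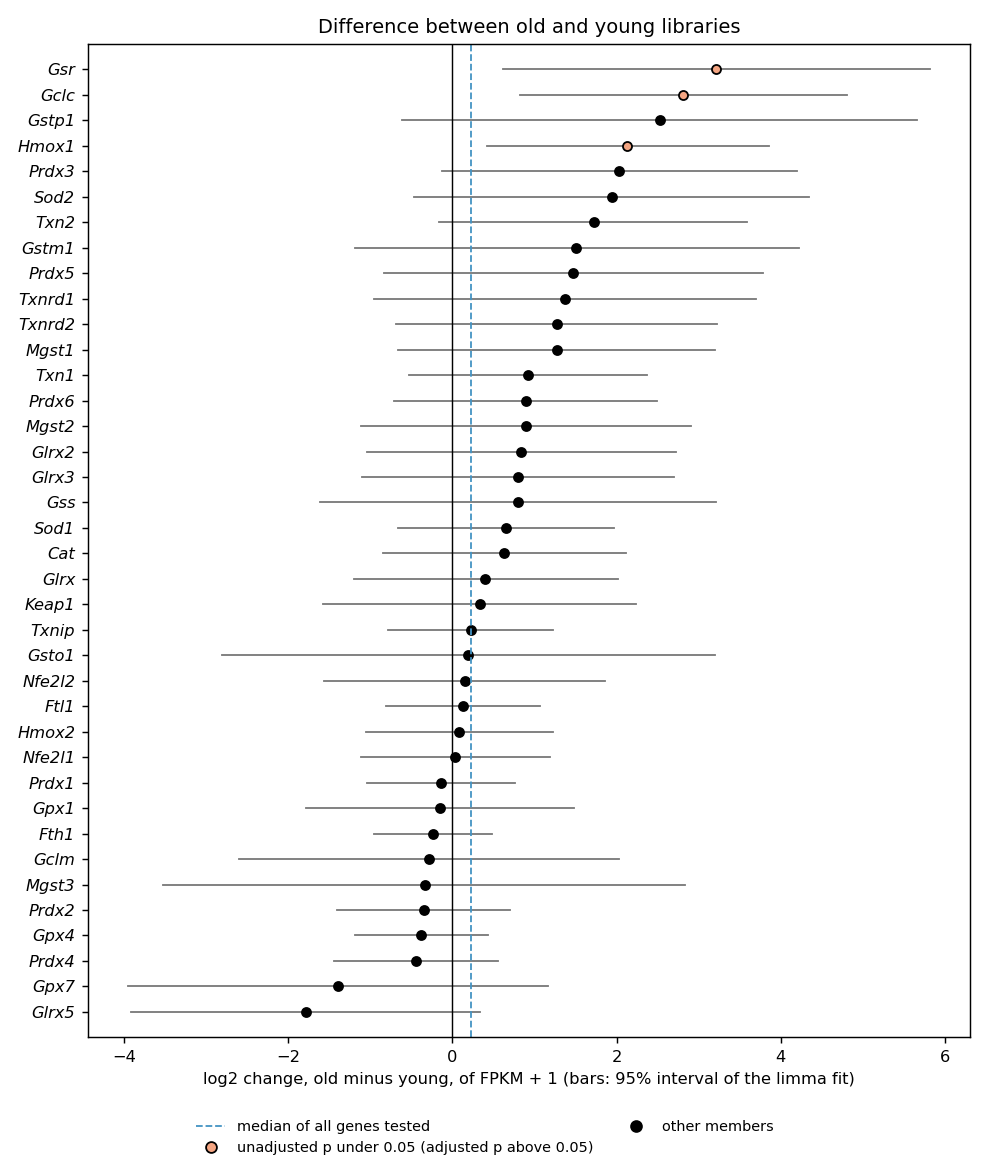
Log2 change of FPKM + 1, old minus young, for the 38 tested members, ordered by size, with 95% intervals from the limma fit over all genes. Intervals exclude 0 for Gsr (0.61 to 5.82), Gclc (0.82 to 4.80) and Hmox1 (0.42 to 3.85) without adjustment, and the median of all genes tested is 0.23.

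Glutathione synthesis and recycling held 2 of the 3 members at an unadjusted p under 0.05, Gclc and Gsr. Gclc, the catalytic subunit of glutamate-cysteine ligase, which makes the first bond of glutathione, was at 19.9, 6.85 and 21.1 FPKM in old libraries, against 4.51, 0.627 and 0.165 in young ones. Every old library lay above every young one. The mean was 15.9 ± 7.90 FPKM in old and 1.77 ± 2.39 in young libraries (SD, n = 3 each), and the log2 difference was 2.81 ± 0.89 (SE; limma adjusted p = 0.736). Gclc lies on chromosome 9 (77754535 to 77794485, plus strand, GRCm38). Its partner Gclm, the modifier subunit that raises the activity of the enzyme, did not show the same order, at 0.627, 1.62 and 6.06 FPKM in old libraries and 3.67, 8.77 and 0.188 in young ones. The groups overlapped and the log2 change was -0.28 ± 1.04 (SE). The difference between the 2 subunits' changes was not tested.

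Gsr encodes glutathione reductase, which restores oxidised glutathione with NADPH (chromosome 8, 33652523 to 33698163, plus strand). It was at 19.0, 42.3 and 55.3 FPKM in old libraries, against 33.4, 0.0297 and 0.719 in young ones. Young replicate 1 thus lay within the old range, while young replicates 2 and 3 held next to no reads of this gene. With the exon length of the annotation, the old values stand for about 1413, 3216 and 4147 fragments, and the young ones for about 2247, 2 and 44. Gsr differed by 3.21 ± 1.17 on the log2 scale (SE; limma adjusted p = 0.767). Gss, glutathione synthetase, had the same 2 young libraries at 0: it was at 0.863, 0.519 and 9.54 FPKM in old libraries, against 4.61, 0 and 0 in young ones. The 4 genes of this group summed to 40.3, 51.2 and 92 FPKM in old libraries, against 46.2, 9.43 and 1.07 in young ones. Without young replicate 2 or young replicate 3 the unadjusted p of Gsr was 0.0971 and 0.0914, and without old replicate 1, 2 or 3 it was 0.0508, 0.0912 and 0.127. For Gclc the unadjusted p was 0.0557 without old replicate 1 and 0.061 without old replicate 3.

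Hmox1 encodes the inducible haem oxygenase, which breaks haem down to biliverdin, iron and carbon monoxide (chromosome 8, 75093621 to 75100589, plus strand). It was at 102, 156 and 19.3 FPKM in old libraries, against 6.19, 19.5 and 25.5 in young ones. Old replicates 1 and 2 were far above every young library, and old replicate 3 lay inside the young range. Hmox1 differed by 2.13 ± 0.77 on the log2 scale (SE; limma adjusted p = 0.758). Its unadjusted p was 0.107 without young replicate 1, 0.108 without old replicate 1 and 0.124 without old replicate 2.

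Macrophages that recycle haem also carry Hmox1. The monocyte and macrophage markers summed to 205, 272 and 657 FPKM in old libraries, against 49.1, 132 and 251 in young ones. Of these 11 markers, 8 had a higher mean in old libraries. Lyz2, which carries most of this sum in every library but young replicate 3, was at 179, 196 and 516 FPKM in old libraries. It was at 26.7, 97.1 and 99.1 in young ones, and its groups did not overlap (limma adjusted p = 0.68). The groups overlapped for the other 10. Of these, Cd68 reached 129 FPKM in young replicate 3, Fcgr3 67.4, Ccr2 28.1, Csf1r 8.97 and Adgre1 2.75 in old replicate 3, C1qa 15.6 in young replicate 3, Cd5l 4.75 in old replicate 2 and Vcam1 2.07 in young replicate 2. Spic was at most 0.123 and C1qb at most 0.0358 in any library. The 10 neutrophil markers summed to 265, 1279 and 656 FPKM in old libraries, against 433, 569.7 and 513 in young ones. Of these 10, 8 had a higher mean in old libraries. The part of these cell types in the Hmox1 values was not tested. Bach1, the repressor that haem removes from Hmox1, was at 3.81, 7.03 and 13.6 FPKM in old libraries, against 12.4, 1.93 and 7.88 in young ones, with overlap. Hmox2, the constitutive haem oxygenase, was at 49.2, 79.8 and 67.3 in old libraries, against 25.6, 97.5 and 88.1 in young ones. Its log2 change of 0.08 had a 95% interval of -1.05 to 1.22, and its sign turned negative after median-ratio scaling.

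Iron released from haem is stored in ferritin. Fth1 was at 231, 296 and 310.2 FPKM in old libraries, against 217, 361 and 442 in young ones, and Ftl1 was at 82.1, 216 and 138 against 104, 191 and 93.5. Groups overlapped for both. The log2 change of Fth1 was -0.24, with a 95% interval of -0.95 to 0.48, and that of Ftl1 was 0.13, with an interval of -0.81 to 1.07. Ferritin genes have many processed copies, and reads shared with them may be split by the counting. In the annotation, 2 pseudogenes carry the name of Ftl1, and 1 each that of Gpx4 and of Prdx6.

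Prdx4 and Prdx1 were the most abundant peroxiredoxins by mean FPKM over the 6 libraries. Prdx4, the form of the endoplasmic reticulum, was at 35.1, 61.2 and 59.5 FPKM in old libraries, against 43.9, 61.7 and 121 in young ones. The highest value was that of young replicate 3, and the groups overlapped. The cytosolic Prdx1 was at 44.6, 52.1 and 60.7 in old libraries, against 88.0, 36.3 and 59.4 in young ones. For Prdx4 the log2 change was -0.45 with a 95% interval of -1.44 to 0.55, and for Prdx1 it was -0.14 with an interval of -1.04 to 0.76.

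Prdx3, the peroxiredoxin of mitochondria, was at 15.7, 23.8 and 30.8 FPKM in old libraries, against 12.4, 12.9 and 0.0321 in young ones. The lowest old library lay just above the highest young one, and young replicate 3 stood for about 1 fragment where the other young libraries had about 448 and 483. Prdx3 differed by 2.03 ± 0.97 on the log2 scale (SE; limma adjusted p = 0.839), and by 0.79 without young replicate 3. It was the peroxiredoxin of smallest p. Prdx2, a cytosolic form abundant in red cells, ranged from 14.7 to 39.3 FPKM in old and from 27.8 to 32.6 in young libraries. Its highest value was that of old replicate 3, the library with the highest erythroid marker sum, and the part of those markers in it was not tested. In young replicate 2 the 7 erythroid markers summed to 0.336 FPKM and Prdx2 was at 28.0.

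Prdx5, found in several compartments, ranged from 16.4 to 34.2 FPKM in old and from 1.56 to 61.8 in young libraries. Prdx6, which uses a single catalytic cysteine, ranged from 6.33 to 17.6 in old and from 3.33 to 9.32 in young ones. Srxn1 encodes sulfiredoxin, which reactivates peroxiredoxins after overoxidation. It was at 0, 3.14 and 0.708 FPKM in old libraries and was listed at 0 in the 3 young ones. The make-up of the peroxiredoxin transcripts differed mainly among the young libraries. Prdx4 made up 24.3%, 34.0% and 24.6% of the summed FPKM of Prdx1 to Prdx6 in old libraries, against 24.0%, 42.0% and 43.5% in young ones. Prdx3 made up 10.8%, 13.2% and 12.7% in old libraries, against 6.78%, 8.81% and 0.0116% in young ones.

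**Figure D3:**
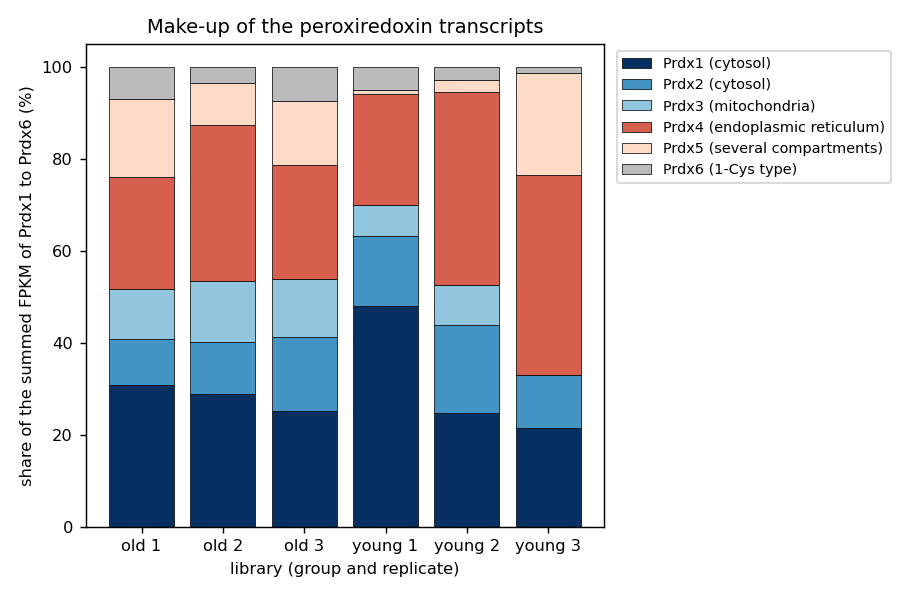
Share of each peroxiredoxin in the summed FPKM of Prdx1 to Prdx6, one bar per library, old libraries left. The Prdx3 share is 10.8% to 13.2% in old libraries and 0.0116% to 8.81% in young ones, and the Prdx5 share runs from 0.851% to 22.2% among the young libraries.

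Thioredoxins keep peroxiredoxins reduced. Cytosolic Txn1 was at 24.9, 65.8 and 21.6 FPKM in old libraries, against 6.76, 33.6 and 20.5 in young ones, with overlap. The mitochondrial thioredoxin Txn2 was at 8.07, 14.9 and 8.57 in old libraries, against 4.66, 4.18 and 0.329 in young ones, and every old value lay above every young one. Txn2 differed by 1.72 ± 0.84 on the log2 scale (SE; limma adjusted p = 0.839). Without young replicate 3 the change of Txn2 was 1.04. That of Txn1 was 0.92, and was 0.31 without young replicate 1 and 0.43 without old replicate 2. Txnrd2, the reductase of mitochondria, ranged from 1.77 to 6.25 FPKM in old and from 0.303 to 2.87 in young libraries. Txnrd1, the cytosolic reductase, ranged from 21.5 to 48.7 in old libraries, and was at 36.2, 0.614 and 29.3 in young ones. Its log2 change of 1.37 became -0.09 without young replicate 2.

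Txnip binds and inhibits thioredoxin and limits glucose uptake. It was at 107, 136 and 90.4 FPKM in old libraries, against 70.0, 60.0 and 197 in young ones. The means of 111 ± 23.1 in old and 109 ± 76.5 in young libraries (SD, n = 3 each) were nearly equal, with a log2 change of 0.22 and a 95% interval of -0.79 to 1.23. Among the glutaredoxins, which reduce glutathionylated proteins or carry iron-sulfur clusters, Glrx was the most abundant, at 15.6 to 50.9 in old and 7.87 to 57.6 in young libraries. Glrx3 ranged from 13.9 to 17.6 in old and from 1.19 to 20.2 in young libraries, and Glrx2 was at most 4.26 in any library. Glrx5, which acts in mitochondrial iron-sulfur cluster assembly, went the other way and had the lowest log2 change of the members. It was at 0, 3.82 and 4.27 FPKM in old libraries, against 17.1, 3.73 and 11.2 in young ones, so that young replicate 2 overlapped the old range, and its limma adjusted p was 0.841.

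Of the glutathione peroxidases, Gpx1 and Gpx4 were among the abundant members, with means of 67.9 and 53.3 FPKM, while Gpx7 averaged 2.98. Gpx1, the cytosolic and mitochondrial form, was at 14.8, 48.3 and 168 FPKM in old libraries, against 61.6, 78.7 and 35.3 in young ones. Old libraries held both the lowest and the highest value. The mean FPKM was higher in old libraries while the log2 change was -0.15, with a 95% interval of -1.79 to 1.48, and without old replicate 1 the change was 0.69. The highest Gpx1 was again that of old replicate 3, with the erythroid and monocyte marker sums given above, and their part was not tested. Gpx4, which reduces lipid peroxides in membranes and protects from ferroptosis, varied least of the 3, at 40.3, 46.4 and 49.8 in old libraries, against 48.9, 51.2 and 82.9 in young ones. Its log2 change was -0.38, with a 95% interval of -1.19 to 0.43. Gpx7, a peroxidase of the endoplasmic reticulum, was at 0, 0.0273 and 0 FPKM in old libraries and at 0, 17.8 and 0 in young ones. Young replicate 2 held about 580 fragments of it and the other 5 libraries at most about 1.

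Glutathione transferases couple glutathione to electrophiles. Gstp1 was at 112, 109 and 109.8 FPKM in old libraries, against 52.2, 133 and 0 in young ones. The old values were nearly equal, and young replicate 3 was listed at 0 beside the highest value of all, that of young replicate 2. Gstm1 was at 40.0, 3.61 and 29.2 in old libraries, against 8.55, 0 and 24.7 in young ones. Gsto1 ranged from 0.0198 to 29.6 FPKM in old and from 0.147 to 10.8 in young libraries. The membrane-bound Mgst1 was at 0, 1.23 and 5.29 in old libraries and listed at 0 in the young ones. Mgst2 ranged from 2.28 to 5.52 in old and from 0 to 3.78 in young libraries, and Mgst3 from 0 to 9.25 in old and from 0 to 25.2 in young ones. Gstm5 was at most 2.67 and Gstk1 at most 1.94 in any library. The mu and pi classes have near-identical copies, so the split of reads among them is uncertain. The log2 change of Gstp1 was 2.53, with a limma adjusted p = 0.841, and it was 0.4 without young replicate 3 and 3.93 without young replicate 2.

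Superoxide dismutases turn superoxide into hydrogen peroxide, which catalase breaks down in peroxisomes. Cytosolic Sod1 was at 247, 249 and 276 FPKM in old libraries, against 399, 53.5 and 202 in young ones. The mitochondrial Sod2 was at 40.9, 16.9 and 27.9 in old libraries, against 29.7, 11.4 and 0.0143 in young ones. Catalase, Cat, ranged from 21.7 to 22.6 in old and from 6.18 to 41.6 in young libraries. In each of the 3 the old values lay within or overlapped the young range. The 3 log2 changes were 0.65 for Sod1, 1.94 for Sod2 and 0.63 for Cat, with a limma adjusted p of 0.854, 0.841 and 0.870 in the same order. That of Sod1 became -0.14 without young replicate 2 and 1.3 without young replicate 1. Without young replicate 3 that of Sod2 was 0.52 and that of Cat 0.1. Without young replicate 1 they were 2.97 and 1.38.

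The regulators of the response differed by less than the spread between libraries. Nfe2l2, which encodes NRF2, was at 7.51, 16.6 and 11.4 FPKM in old libraries, against 11.1, 26.5 and 3.08 in young ones. Its inhibitor Keap1 was at 10.2, 6.38 and 21.5 in old libraries, against 5.53, 3.29 and 32.5 in young ones. Nfe2l1, which encodes the related factor NRF1 that raises proteasome genes, was at 41.2, 46.6 and 31.0 in old libraries, against 53.1, 16.7 and 61.4 in young ones. The 95% intervals of the log2 change were -1.56 to 1.86 for Nfe2l2, -1.58 to 2.23 for Keap1 and -1.12 to 1.19 for Nfe2l1, so a difference of 1 log2 unit in either direction lies within each. The sign of Nfe2l2 turned under quantile normalization and that of Nfe2l1 after median-ratio scaling.

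Members, like the genes tested as a whole, varied more among young than among old libraries. The range over 3 libraries on the log2(FPKM + 1) scale had a median of 1.28 in old and 2.25 in young libraries, against 1.19 and 1.76 over all genes tested. The young range was the larger one for 28 of 38 members (73.7%), against 65.4% of all genes. Of 28 members that reached 20 FPKM in some library, 9 (32.1%) were below 1 FPKM in another, against 21.8% of 5307 genes. They were Gclc, Gsr, Gstm1, Gsto1, Gstp1, Mgst3, Prdx3, Sod2 and Txnrd1, of which Gsto1 and Mgst3 fell below 1 FPKM in old libraries too. Of the 41 members, 11, 4 and 3 were below 1 FPKM in old replicates 1, 2 and 3. In young replicates 1, 2 and 3 these numbers were 6, 13 and 15, so young replicate 1 had fewer than old replicate 1. Depth and the number of genes above 0 were lower in young libraries, as given above, and their part in these differences was not tested.

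**Figure D4:**
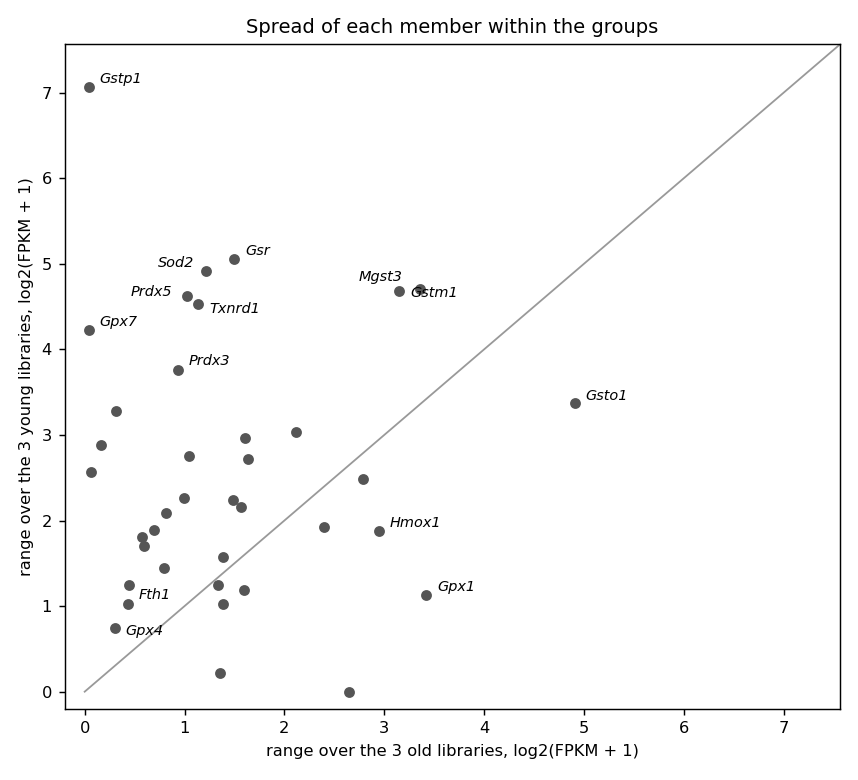
Range of each tested member over the 3 old libraries (horizontal) and over the 3 young libraries (vertical) on the log2(FPKM + 1) scale, with the line of equal ranges. Of the 38 points 28 (73.7%) lie above the line, against 65.4% of all genes tested. Gstp1 is farthest above it, at 0.04 in old and 7.07 in young libraries. Mgst1 (2.65 in old, 0 in young) and Gpx1 (3.42 in old, 1.13 in young) lie farthest below it.

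Other genes of the pathway, a list of 71 in 10 groups, were read from the same fit. Of the 64 with a row 52 were tested, and limma called 0 of them. The change was above 0 in 36 (69.2%) and its median was 0.34, beside the 61.3% and 0.23 of all genes. The 52 include Txnrd3, with a young mean of 0.091 FPKM, and Pstk, with an old mean of 0.692 FPKM. At an unadjusted p under 0.05, 3 were higher (5.77%, against 4.66% of all genes) and 2 lower (3.85%, against 1.25%). The 3 higher were Eefsec, Msrb1 and Sesn1, and the 2 lower were Txndc12 and Txndc17. In 3 of the 52 (5.77%) every old library was above every young one, against 8.78% of all genes, and in 1 (1.92%) every old library was below, against 3.42%.

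Eefsec, the elongation factor that brings selenocysteine into selenoproteins such as Gpx1 and Gpx4, was at 34.9, 9.29 and 6.81 FPKM in old libraries, against 5.72, 0.077 and 0 in young ones. Msrb1, a selenoprotein that repairs oxidised methionine, was at 34.2, 11.5 and 36.7 in old libraries, against 0.682, 20.7 and 0 in young ones. Sesn1, a stress-induced sestrin, was at 42.9, 26.7 and 35.9 in old libraries, against 18.8, 23.1 and 4.13 in young ones. The groups did not overlap for Eefsec and Sesn1 and overlapped for Msrb1. Txndc12, a thioredoxin-like protein of the endoplasmic reticulum, was lower in each old library, at 7.46, 14.5 and 16.1 FPKM, against 60.2, 31.2 and 29.6 in young ones. The difference was -1.58 ± 0.51 on the log2 scale (SE; limma adjusted p = 0.736). The cytosolic Txndc17 was at 10.5, 31.1 and 8.38 in old libraries, against 48.1, 20.4 and 90.6 in young ones, and the transferase Gstm4 was at 5.72, 12.3 and 5.12 against 7.75, 0 and 0. The limma adjusted p of these 6 lay between 0.736 and 0.841.

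Cystine for glutathione enters cells through a carrier made of Slc7a11 and Slc3a2. Slc3a2, which also pairs with other amino acid carriers, was at 268, 363 and 236 FPKM in old libraries, against 91.9, 222 and 329 in young ones. Slc7a11 was listed at 0 in 5 of the 6 libraries and at 0.0745 in old replicate 1. G6pdx, the first enzyme of the pentose phosphate pathway and a source of NADPH, was at 39.4, 36.3 and 44.1 FPKM in old libraries, against 17.8, 43.3 and 25.8 in young ones, with overlap. Slc3a2, Slc7a11 and G6pdx were chosen after their values were seen.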

How the data were processed

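FPKM values of 13642 genes in 6 libraries were used as deposited by the authors. Per the submitters' processing notes, bcl2fastq 2.17, STAR and DESeq2 were used with GRCm38 and mm10. The counter, annotation release and strand setting are not given in the sources used here, so overlapping and antisense genes cannot be told apart. Per the labels' protocols, libraries were made with a stranded total RNA kit from 5 ng of RNA.

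The 10687 genes whose mean over the 6 libraries reached 1 FPKM entered a limma fit (version 3.58.1, R 4.3.3) on log2(FPKM + 1), old minus young, with a mean-variance trend, two-sided, with Benjamini-Hochberg adjustment over all of them and calls at an adjusted p under 0.05. Fold changes of low genes are understated on this scale. An exact permutation test of 3 against 3 libraries cannot go below 0.1 and was not used. Depth was estimated from the steps of the low values, and fragment numbers from these depths and GENCODE M21 exon lengths, for genes whose versioned identifier matched. Coordinates are those of GENCODE M21 on GRCm38, to which 99.9% of identifiers matched without their version.

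Values in every library are given for the 2 members of highest mean FPKM in each role, the member of smallest p, those whose groups did not overlap, Nfe2l2, Keap1, Nfe2l1, Hmox1, Txnip and Srxn1, and the 6 other pathway genes of smallest p. Gss, Gclm, Glrx5, Hmox2, Mgst1, Txnrd1, Bach1, Lyz2 and the genes so marked in the text were added after their values were seen. The members and lists were chosen with earlier results of these data known. Alternatives were another pseudocount, other filters, median-ratio scaling, quantile normalization, array weights, a replicate block and leaving out each library.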

Additional observations from a re-analysis of the deposited data

How the results depend on the processing

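Limma called 0 members, and 0 genes of the other pathway list, under each of the 14 alternatives, and the lowest adjusted p of a member was 0.381, for Gsr without young replicate 1. Over all genes 0 were called, against 1 under quantile normalization and 1 with array weights. The count of members at an unadjusted p under 0.05 was 3, and it was 1 with no filter (Gclc), 5 under quantile normalization, 1 among genes averaging 20 FPKM or more (Hmox1), and 1 to 6 with a library left out. It was 1 without old replicate 1 (Mgst1, which is listed at 0 in every young library, with Gclc, Gsr and Hmox1 all lost), old replicate 2 (Gclc) or old replicate 3 (Hmox1), and 6 without young replicate 1 (Cat, Gclc, Gsr, Prdx3, Sod1 and Sod2). Counts over all genes moved too. Of 10687 genes 498 were higher and 134 lower, against 320 and 238 under quantile normalization and 785 and 198 without young replicate 1. With any library left out 401 to 785 were higher and 64 to 198 lower. With no filter these were 603 and 162 of 13642 genes, and at 20 FPKM or more 61 and 68 of 2835. The 28 positive members became 14 (of 20) among genes averaging 20 FPKM or more, where 51.4% of all genes were positive. The members' median of 0.64 was 0.4 where the filter was 5 FPKM, 0.31 where it was 20 and 0.28 under quantile normalization, and 0.41 (without young replicate 2) to 0.81 (without old replicate 1) with a library left out. The unscaled values had an all-gene median of 0.228, which median-ratio scaling moved to 0.143 and quantile normalization to -0.0104. The cause was not tested.

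Of 507 member results 471 kept direction and side and 36, in 18 members, changed sign. With a library left out the log2 change ran from -0.47 to 0.16 for Prdx1, -0.09 to 2.18 for Txnrd1, -0.1 to 0.75 for Txnip, -0.21 to 1.15 for Glrx, -0.24 to 1.4 for Glrx3, -1.12 to 0.4 for Gclm, -0.08 to 1.63 for Gss, -1.02 to 0.69 for Gpx1, -2.1 to 0.01 for Gpx7, -0.96 to 1.49 for Gsto1, -1.4 to 1.23 for Mgst3, -0.14 to 1.3 for Sod1, -0.57 to 0.81 for Nfe2l2, -0.54 to 0.37 for Nfe2l1, -0.27 to 1.21 for Keap1, -0.52 to 0.42 for Hmox2 and -0.2 to 0.49 for Ftl1. Under quantile normalization Glrx2 was -0.13, Gsto1 -0.13 and Nfe2l2 -0.1. With a pseudocount of 0.1 Gsto1 was -0.1 and Mgst3 0.14, and after median-ratio scaling Nfe2l1 was -0.06 and Hmox2 -0.02.

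With the replicate number as a block, 0 members were called and 4 (Gclc, Gsr, Gstp1 and Hmox1) had an unadjusted p under 0.05. Over all genes the replicate block gave 0 calls, with 440 higher and 131 lower at an unadjusted p under 0.05, against 498 and 134 without it. The labels do not say that the numbers pair samples, so they were not read as pairs. Same-numbered libraries did not deviate together (correlations of -0.0344, 0.0203 and -0.00412 over genes), which cannot exclude pairing.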
